A study of Mus musculus with 12 samples.

Results

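The 10 genes described here, of 32168 in the count table, encode the Hippo kinase core and its upstream regulators. They were chosen by name from knowledge of the pathway, with earlier results of these data known. They are the kinases Lats1, Lats2, Stk3 and Stk4, their adaptors Sav1, Mob1a and Mob1b, and the membrane-linked regulators Nf2, Wwc1 and Wwc2. RNA-seq read counts per gene came from 12 libraries of mouse embryonic fibroblasts (MEFs), connective-tissue cells cultured from embryos at day 13.5 of gestation and used at passages 4 to 10. The libraries fell into 8 groups. Double-knockout (DKO) cells lack Lats1 and Lats2 by their label, and wild-type (WT) cells carry no stated change. Each genotype received MGH-CP1 (CP1), a small molecule that blocks the palmitoylation of TEAD transcription factors, at 1 µM in DMSO, or DMSO alone. Exposure lasted 4 or 2 days, with 2 CP1 libraries and 1 DMSO library per genotype and day. The labels state neither how the DKO cells were made nor which exons were removed, nor how many embryos or cultures stand behind a genotype, so loss of both kinases and another difference in origin between DKO and WT cells cannot be told apart. Nothing says that repeats came from separate cultures, so p-values reflect how these samples vary among themselves, a variation that may be technical.

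In the Hippo pathway the kinases STK3 and STK4 (MST2 and MST1), bound to the scaffold SAV1, phosphorylate LATS1 and LATS2 and the MOB1 adaptors that activate them. Active LATS kinases phosphorylate the co-activators YAP and TAZ, which then leave the nucleus and no longer act with TEAD factors on DNA. NF2 (merlin) recruits LATS kinases to the plasma membrane, and WWC1 (KIBRA) and WWC2 assemble upstream kinases and LATS there. Several of these genes are known as targets of YAP and TEAD themselves, among them LATS2 and NF2 in human cells.

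Library totals ran from 16970834 to 25299262 counts, and the members had between 252 and 9936 counts per library. Levels are given as CPM, counts scaled to the same TMM-adjusted library total, a scale for comparing 1 gene between libraries. Both DKO DMSO libraries stood apart. That of 2 days had the fewest genes detected (20682) and the lowest TMM factor (0.868), and that of 4 days was next on both (21648 and 0.924). The other libraries had 22042 to 23680 genes and factors of 0.965 to 1.06. Calls that change without the 2-day library, the further apart, are given beside the results. Fibroblast markers summed to 16700 to 22100 CPM in DKO CP1 and 12000 to 12300 CPM in DKO DMSO libraries, against 20800 to 27400 CPM in WT CP1 and 30500 to 31200 CPM in WT DMSO libraries. Of the 14 listed markers only Thy1 was at 0 in a group, DKO DMSO. It stood at 0.167 to 1.23 CPM in DKO CP1, 121.6 to 138.3 CPM in WT CP1 and 118.9 to 120.7 CPM in WT DMSO. Others were far lower too. By group mean, Dcn had 1.49 CPM in DKO DMSO against 954 CPM in WT DMSO. Lum had 0.175 CPM against 148 CPM, and Col3a1 28.4 CPM against 3509.5 CPM. Of the 14, only Vim was higher in DKO DMSO than in WT DMSO, at 4490.5 CPM against 3111 CPM. Ribosomal RNA genes took 2.11 to 2.68% of counts in 3 WT CP1 libraries, against 0.104 to 0.323% in the other 9 (all DKO libraries and the remaining WT ones), and TPM is a share of the whole library.

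TPM values, which divide counts by gene length before scaling to a fixed total, allow levels to be compared between members. By mean TPM, Mob1a was the most abundant member in all 4 combinations of genotype and treatment. It had 173 ± 9.65 TPM in DKO CP1 (SD, n = 4) and 160.4 ± 26.4 TPM in DKO DMSO (SD, n = 2). In WT cells it had 177 ± 22.7 TPM in CP1 (n = 4) and 194 ± 2.26 TPM in DMSO (n = 2). In DKO cells in DMSO the next places were held by Wwc1 at 158 ± 24.1 TPM, Nf2 at 126 ± 26.9 TPM and Wwc2 at 108 ± 17.2 TPM, whose spreads overlapped. The spreads of Wwc1 and Nf2 also overlapped that of Mob1a. The lowest 3 were Lats1 at 8.33 ± 2.80 TPM, Lats2 at 7.48 ± 0.228 TPM and Mob1b at 6.62 ± 5.42 TPM, which overlapped too (SD, n = 2 each). In WT cells in DMSO the order after Mob1a was Sav1 at 78.1 ± 5.06 TPM, Lats1 at 54.4 ± 2.23 TPM, Nf2 at 48.6 ± 2.52 TPM and Wwc2 at 48.0 ± 0.0212 TPM. Stk4 (32.4 ± 1.08 TPM), Lats2 (31.4 ± 2.14 TPM), Stk3 (25.7 ± 1.81 TPM), Wwc1 (21.5 ± 0.834 TPM) and Mob1b (16.1 ± 0.347 TPM) followed. Of these neighbours, Nf2 and Wwc2, and Stk4 and Lats2, did not differ beyond their SD. By mean, Wwc1 thus held place 2 of 10 in DKO DMSO, not apart from Mob1a, and place 9 of 10 in WT DMSO.

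**Figure D1:**
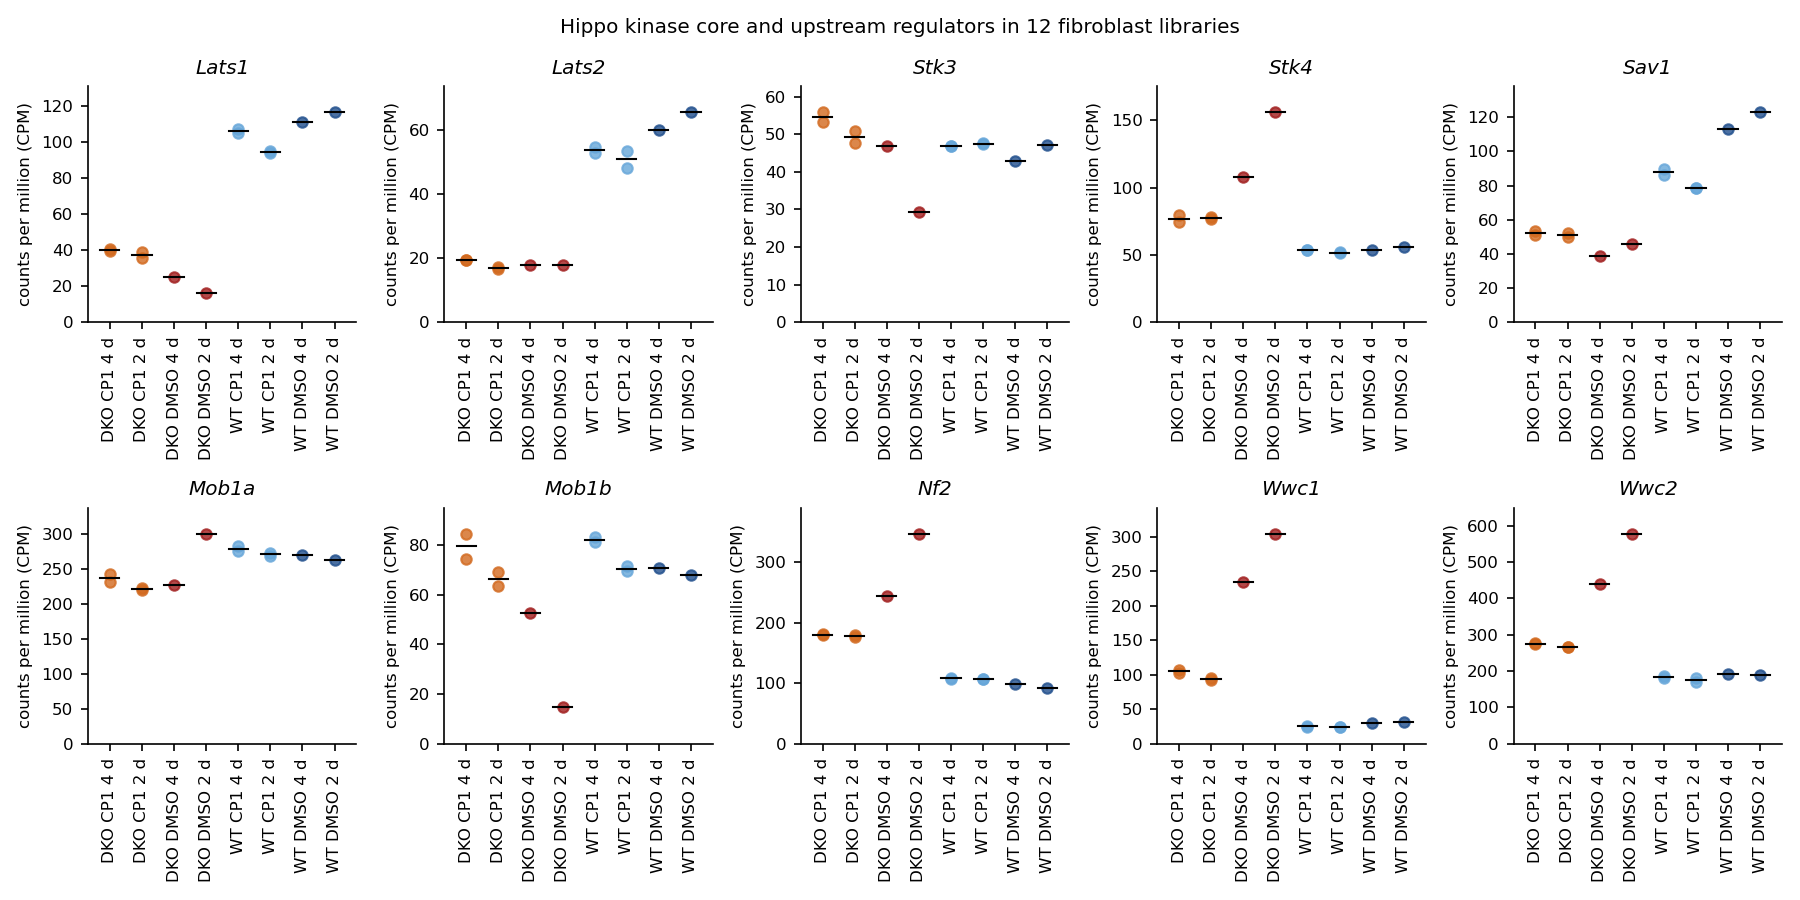
Level of each member in CPM (vertical axis from 0) in the 8 groups of genotype, treatment and day; each point is 1 library and each line the group mean. Wwc1, Wwc2, Nf2 and Stk4 are highest in the DKO DMSO libraries, and Lats1, Lats2 and Sav1 in the WT DMSO libraries.

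In DMSO, DKO cells had less Lats1, Lats2, Sav1 and Mob1b RNA and more Wwc1, Nf2, Wwc2 and Stk4 RNA than WT cells, while Stk3 and Mob1a did not pass the test. Of the 10 members, 8 were called at an adjusted p under 0.05, 4 higher and 4 lower, against 67.5% of the 16595 genes tested (32.7% higher and 34.8% lower), so the share called is close to the background of this comparison. The size of the differences lay above the typical gene. The median absolute log2 fold change was 1.45 over the 10 members, 1.34 over the 8 that were not deleted, and 0.80 over all genes. The members were chosen with earlier results of these data known, so the larger size is a description only. Tests were edgeR quasi-likelihood tests with Benjamini-Hochberg adjustment over all genes, on the mean of both days. By TPM, 34.7% of called genes were higher in DKO cells, against 48.4% by TMM-scaled counts, and the median of all genes lay at -0.23 (log2).

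Both genes named in the DKO label were lower there. Lats1, a kinase that phosphorylates YAP and TAZ (ENSMUSG00000040021.13, mm10 chr10:7681214-7716460, plus strand), had 25.2 CPM at 4 days and 16.2 CPM at 2 days in DKO DMSO libraries, against 111 CPM and 117 CPM in WT DMSO libraries. Lats2 (ENSMUSG00000021959.16, chr14:57689662-57758388, minus strand), its paralog and the other deleted kinase, had 17.8 CPM and 17.9 CPM in DKO DMSO, against 60.1 CPM and 65.7 CPM in WT DMSO. Every DKO library lay below every WT library for both genes, but neither was near 0. Lats1 was 5.58-fold lower (log2 fold change -2.48, SE 0.12, edgeR adjusted p = 2.45e-09) and Lats2 3.52-fold lower (-1.82, SE 0.10, edgeR adjusted p = 4.77e-09). Counts are over the whole gene, so RNA of exons that a deletion leaves in place is included. In the GENCODE M21 annotation, 42.4% of the exonic bases of Lats2 are shared with a gene model on the same strand, Gm49361, which was not analysed here, so the Lats2 level may rest on its other exons.

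Among the upstream kinases, Stk4 (ENSMUSG00000018209.15, chr2:164070322-164155524, plus strand) had 108 CPM at 4 days and 156 CPM at 2 days in DKO DMSO, against 53.5 CPM and 55.6 CPM in WT DMSO. It was 2.40-fold higher (log2 1.26, SE 0.11, edgeR adjusted p = 5.25e-07). Its paralog Stk3 (ENSMUSG00000022329.15, chr15:34875496-35178921, minus strand) had 46.9 CPM and 29.2 CPM in DKO DMSO, against 43.0 CPM and 47.1 CPM in WT DMSO. The 4-day DKO library lay within the WT values and the 2-day one below both, and the difference did not pass (log2 -0.27, SE 0.12, edgeR adjusted p = 0.057). The value was -0.02 without that library and -0.55 (edgeR adjusted p = 4.15e-05) without the 4-day DKO DMSO library. Sav1 (ENSMUSG00000021067.8, chr12:69965012-69987002, minus strand), the scaffold of both kinases, had 39.0 CPM and 45.7 CPM in DKO DMSO, against 113 CPM and 123 CPM in WT DMSO. The groups were far apart, and Sav1 was 2.79-fold lower (log2 -1.48, SE 0.10, edgeR adjusted p = 2.83e-08). On the opposite strand, 25.4% of the exonic bases of Sav1 are shared with Atl1, which had 1336 counts over the 12 libraries, against 18573 for Sav1.

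The MOB1 adaptors differed from each other. Mob1b (ENSMUSG00000006262.15, chr5:88720855-88764220, plus strand) had 52.6 CPM at 4 days and 14.7 CPM at 2 days in DKO DMSO, against 70.9 CPM and 68.2 CPM in WT DMSO. Both DKO libraries were below both WT libraries, but they also differed greatly between themselves. The log2 fold change was -1.19 (SE 0.34, edgeR adjusted p = 0.0163), -0.54 without the 2-day DKO library and -2.11 without the 4-day one. The call was lost with the 4 DMSO libraries alone (-1.07, edgeR adjusted p = 0.212) and without a WT DMSO library (edgeR adjusted p = 0.084 without that of 2 days and 0.0563 without that of 4 days). Mob1a (ENSMUSG00000043131.14, chr6:83326016-83343776, plus strand) had 228 CPM and 301 CPM in DKO DMSO, on either side of the 270.2 CPM and 264 CPM of WT DMSO. Its log2 fold change was -0.02 (SE 0.11, edgeR adjusted p = 0.882), and it was called lower without the 2-day DKO library (-0.28) and higher without the 4-day one (0.22). In fits of each day, chosen after seeing the data, it was called lower at 4 days (-0.25) and higher at 2 days (0.19). Those fits set 1 DKO library against 1 WT library, each assumed to vary like the CP1 groups, which alone have 2 libraries. They called 9 members at 4 days and 10 at 2 days, against 64.5% and 68.1% of genes tested.

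The membrane-linked regulators were higher in DKO cells. Wwc1 (ENSMUSG00000018849.6, chr11:35838400-35980527, minus strand) had 234 CPM at 4 days and 304 CPM at 2 days in DKO DMSO, against 30.0 CPM and 31.4 CPM in WT DMSO. That was 8.75-fold higher (log2 3.13, SE 0.13, edgeR adjusted p = 3.25e-10), the largest difference among the 10 members. Wwc2 (ENSMUSG00000031563.8, chr8:47823959-47990924, minus strand) had 440.3 CPM and 578 CPM in DKO DMSO, against 191 CPM and 189 CPM in WT DMSO. The groups did not overlap, and Wwc2 was 2.67-fold higher (log2 1.42, SE 0.10, edgeR adjusted p = 7.12e-08). Nf2 (ENSMUSG00000009073.16, chr11:4765845-4849536, minus strand) had 245 CPM and 347 CPM in DKO DMSO, against 99.2 CPM and 91.4 CPM in WT DMSO. It was 3.08-fold higher (log2 1.63, SE 0.11, edgeR adjusted p = 4.47e-08), and the 2-day DKO library was again the highest. Without that library the log2 values were 2.85 for Wwc1, 1.18 for Wwc2, 1.35 for Nf2 and 0.99 for Stk4, all still called.

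Promoters from RefSeq (GRCm38.p6), 250 bases before to 50 after the annotated start, matched 9 of the 10 members, with 11 promoters (Stk3 was not matched). The TEAD recognition motif GGAATG, on the other strand CATTCC, was searched on both strands and occurred in 14.7% of 32851 mouse promoters. The promoter of Wwc2 held 3 copies, 203, 94 and 79 bases before the start, and at least 3 copies occurred in 0.131% of all promoters. That cut was taken from Wwc2 itself, which had the most copies of the 11 promoters, so the share is a description only. A single copy lay in the upstream promoter of Lats2 (4 bases past the start), in that of Sav1 (106 bases before) and in that of Mob1a (209 bases before). None lay in those of Lats1, Stk4, Mob1b, Nf2 or Wwc1, nor did any member hold the AP-1 motif TGANTCA, which occurred in 7.81% of promoters. A match says only that these letters are present, and no match says nothing of the factor. Shown 5′ to 3′ in the direction of transcription are the promoter with 3 copies, that of its paralog Wwc1, which was 8.75-fold higher and holds none, and the Lats2 and Nf2 promoters, with the TEAD motif in capitals.
Wwc2 (chr8:47990495-47990794, minus strand): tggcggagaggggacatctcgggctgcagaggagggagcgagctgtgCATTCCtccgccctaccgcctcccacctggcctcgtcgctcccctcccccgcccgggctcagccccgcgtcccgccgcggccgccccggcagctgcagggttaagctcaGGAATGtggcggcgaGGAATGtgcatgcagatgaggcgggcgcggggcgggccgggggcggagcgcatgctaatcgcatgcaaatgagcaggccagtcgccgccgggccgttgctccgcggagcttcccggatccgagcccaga
Wwc1 (chr11:35980478-35980777, minus strand): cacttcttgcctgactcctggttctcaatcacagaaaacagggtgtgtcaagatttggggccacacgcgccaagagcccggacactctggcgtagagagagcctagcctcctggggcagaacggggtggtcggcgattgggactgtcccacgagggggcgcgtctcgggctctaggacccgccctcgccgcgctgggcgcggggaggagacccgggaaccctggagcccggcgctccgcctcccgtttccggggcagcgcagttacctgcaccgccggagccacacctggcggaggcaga
Lats2 (chr14:57746074-57746373, minus strand): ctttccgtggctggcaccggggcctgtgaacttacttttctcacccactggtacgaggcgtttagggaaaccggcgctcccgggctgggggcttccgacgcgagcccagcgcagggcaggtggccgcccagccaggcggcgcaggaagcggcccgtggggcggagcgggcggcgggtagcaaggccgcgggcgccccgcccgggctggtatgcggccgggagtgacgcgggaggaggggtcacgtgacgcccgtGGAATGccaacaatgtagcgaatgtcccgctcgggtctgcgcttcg
Nf2 (chr11:4849495-4849794, minus strand): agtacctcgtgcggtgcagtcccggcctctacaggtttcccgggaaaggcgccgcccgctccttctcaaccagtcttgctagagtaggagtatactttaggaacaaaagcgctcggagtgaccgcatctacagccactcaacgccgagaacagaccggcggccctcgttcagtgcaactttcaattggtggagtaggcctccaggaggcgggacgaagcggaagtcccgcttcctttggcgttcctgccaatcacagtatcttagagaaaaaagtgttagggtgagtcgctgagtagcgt

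Summed markers of other cell types differed between the genotypes in DMSO, but the genes within a list did not move together. Endothelial markers summed to 57.3 to 71.9 CPM in DKO DMSO, against 14.8 to 16.9 CPM in WT DMSO, with Tie1 at 0 in both. Most of it was Kdr, with a mean of 64.1 CPM in DKO DMSO against 11.5 CPM. Tek was lower there (0.321 CPM against 4.00 CPM). Pecam1 and Cdh5 had at most 8 reads in any DMSO library, too few to read a direction. Neural markers summed to 541 to 547 CPM in DKO DMSO, against 272 to 277 CPM in WT DMSO, mostly Nes and Map2. Nes was higher in DKO DMSO (mean 328 CPM against 59.5 CPM), as were Tubb3 and Sox2. Map2 was not (201 CPM against 209 CPM), and Sox10 was at 0 in DKO DMSO, against 2 and 3 reads in the WT DMSO libraries. Epithelial markers summed to 6.96 to 8.44 CPM in DKO DMSO and 2.41 to 2.93 CPM in WT DMSO. Most of the DKO sum was Cdh1 (mean 6.71 CPM against 0.417 CPM). Epcam, Krt8 and Krt18 were lower there and Krt5 was higher (0.379 CPM against 0.073 CPM), each with at most 22 reads in a DMSO library. Macrophage markers summed to 11.4 to 13.0 CPM in DKO DMSO and 15.5 to 15.8 CPM in WT DMSO, with Adgre1 at 0 in both. Cd14 was lower in DKO DMSO (1.69 CPM against 10.1 CPM), while Cd68, Csf1r and Lyz2 were higher. Ptprc had 2 reads in the 4-day DKO DMSO library and 0 in each other DMSO library. Skeletal muscle markers summed to 5.2 to 7.16 CPM in DKO DMSO, against 2.49 to 3.49 CPM in WT DMSO. Des was higher in DKO DMSO (mean 4.26 CPM against 1.055 CPM), while Acta1 was not. The part of these markers in the differences was not tested. In bulk RNA, fewer cells of a type and less RNA per cell cannot be told apart.

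Under CP1 the genotypes were closer, and Lats1, Lats2, Sav1 and Mob1a were lower and Wwc1, Nf2, Wwc2 and Stk4 higher in DKO cells. Again 8 of 10 members were called, 4 higher and 4 lower, against 59.5% of all genes tested (28.9% higher and 30.6% lower). By TPM, 69.4% of called genes were higher in DKO cells, against 48.6% by TMM-scaled counts, and the median of all genes lay at 0.19 (log2). These libraries are separate from those of the DMSO comparison, and 4 CP1 libraries stand on each side. Endothelial markers summed to 20.0 to 23.1 CPM in DKO CP1, against 4.5 to 5.72 CPM in WT CP1, and neural markers to 385 to 429 CPM, against 256 to 268 CPM. Most of the endothelial sum was Kdr (mean 20.3 CPM against 3.64 CPM). Tek was lower in DKO CP1 (0.417 CPM against 1.26 CPM), and Pecam1, Cdh5 and Tie1 were low in both and slightly higher in DKO CP1. The part of these markers in the differences was not tested.

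Lats1 had 40.5 and 39.7 CPM after 4 days and 39.0 and 35.5 CPM after 2 days in DKO CP1 libraries, against 105 and 107 CPM and 94.0 and 95.1 CPM in WT CP1 libraries. Lats2 had 19.6 and 19.5 CPM after 4 days and 16.6 and 17.3 CPM after 2 days in DKO CP1, against 54.8 and 52.9 CPM and 48.4 and 53.7 CPM in WT CP1. All 4 DKO libraries were below all 4 WT libraries for both genes. Lats1 was 2.59-fold lower (log2 -1.37, SE 0.08, edgeR adjusted p = 1.46e-08) and Lats2 2.88-fold lower (-1.53, SE 0.07, edgeR adjusted p = 8.67e-10).

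Stk4 had 79.6 and 74.5 CPM after 4 days and 76.8 and 78.5 CPM after 2 days in DKO CP1, against 53.7 and 53.6 CPM and 52.2 and 51.1 CPM in WT CP1. Stk3 had 53.3 and 55.9 CPM after 4 days and 50.8 and 47.8 CPM after 2 days in DKO CP1, against 47.0 and 46.9 CPM and 47.8 and 47.4 CPM in WT CP1. Stk4 was apart by group and 1.47-fold higher (log2 0.56, edgeR adjusted p = 5.07e-05), while for Stk3 the lowest DKO library reached down to the highest WT library and the test did not pass (log2 0.13, SE 0.08, edgeR adjusted p = 0.171). Stk3 was called higher in 7 of 21 alternatives, among them the 8 CP1 libraries alone (0.14, edgeR adjusted p = 0.00581) and without the 2-day DKO DMSO library (0.13, edgeR adjusted p = 0.0215) or the 4-day one (0.13, edgeR adjusted p = 0.022). Sav1 had 51.1 and 53.4 CPM after 4 days and 49.8 and 52.3 CPM after 2 days in DKO CP1, against 89.6 and 86.4 CPM and 78.9 and 78.8 CPM in WT CP1, and was 1.61-fold lower (log2 -0.69, SE 0.07, edgeR adjusted p = 1.55e-06). Mob1a had 243 and 231 CPM after 4 days and 223 and 219.8 CPM after 2 days in DKO CP1, against 283 and 276 CPM and 273 and 269 CPM in WT CP1. All DKO CP1 libraries lay below all WT CP1 libraries for Mob1a. Its log2 value of -0.26 passed (edgeR adjusted p = 0.00914) but not by TPM, where it was -0.02. Mob1b had 84.7 and 74.7 CPM after 4 days and 69.3 and 63.5 CPM after 2 days in DKO CP1, against 83.2 and 81.4 CPM and 69.5 and 71.5 CPM in WT CP1. Those ranges overlapped, and the test did not pass (log2 -0.05, SE 0.23, edgeR adjusted p = 0.857).

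Wwc1 had 102 and 107 CPM after 4 days and 92.5 and 95.0 CPM after 2 days in DKO CP1, against 25.9 and 24.3 CPM and 24.3 and 23.8 CPM in WT CP1. It was 4.04-fold higher (log2 2.01, SE 0.09, edgeR adjusted p = 5.7e-10). Wwc2 had 273 and 277 CPM after 4 days and 265 and 266 CPM after 2 days in DKO CP1, against 185 and 182 CPM and 181 and 169 CPM in WT CP1. It was 1.51-fold higher (log2 0.60, SE 0.07, edgeR adjusted p = 1.06e-05). Nf2 had 179.8 and 181 CPM after 4 days and 179.9 and 176 CPM after 2 days in DKO CP1, against 109 and 107 CPM and 106 and 107 CPM in WT CP1. It was 1.67-fold higher (log2 0.74, SE 0.08, edgeR adjusted p = 3.01e-06). For each of the 3, all DKO CP1 libraries lay above all WT CP1 libraries.

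**Figure D2:**
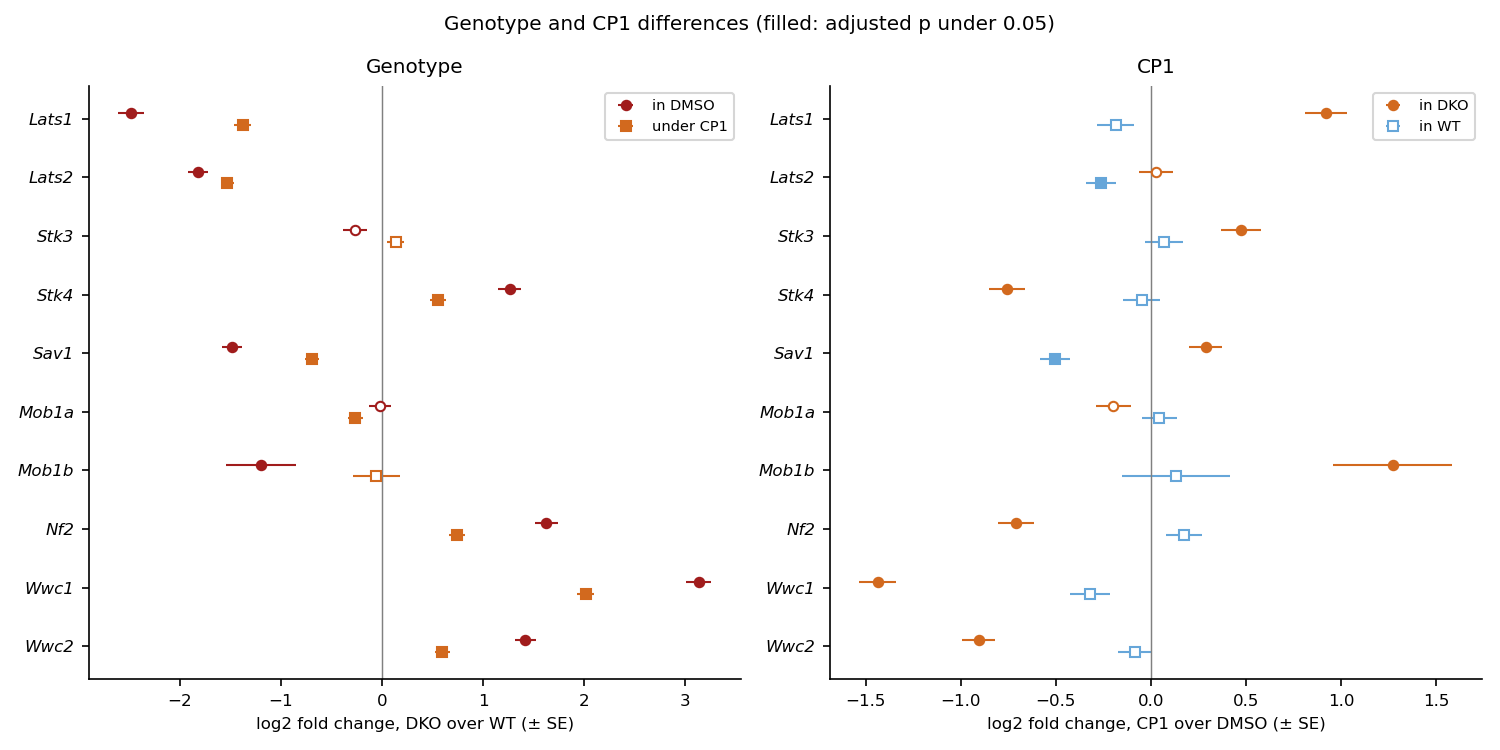
Log2 fold change of each member with its standard error. Left, DKO over WT in DMSO and under CP1; right, CP1 over DMSO in DKO and in WT cells; filled symbols passed the edgeR test. Wwc1 is 8.75-fold higher in DMSO and 4.04-fold higher under CP1 in DKO cells, and Lats1 is 5.58-fold and 2.59-fold lower.

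In DKO cells CP1 was followed by less Wwc1, Wwc2, Stk4 and Nf2 RNA and by more Mob1b, Lats1, Stk3 and Sav1 RNA than DMSO. Here 8 of 10 members were called, 4 higher and 4 lower, against 51.9% of genes tested (24.2% higher and 27.6% lower). By TPM, 79.8% of called genes were higher under CP1, against 46.7% by TMM-scaled counts, and the median of all genes lay at 0.23 (log2). The comparison shares the DKO DMSO libraries with the genotype comparison in DMSO, so the 2 are not independent.

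On the log2 scale Wwc1 fell by 1.44 (SE 0.10, edgeR adjusted p = 1.53e-07), Wwc2 fell by 0.91 (SE 0.09, edgeR adjusted p = 2.62e-06), Stk4 fell by 0.76 (SE 0.09, edgeR adjusted p = 2.77e-05) and Nf2 fell by 0.71 (SE 0.09, edgeR adjusted p = 3.87e-05). All 4 CP1 libraries lay below both DMSO libraries for each of these genes. Lats1 rose by 0.92 (SE 0.11, edgeR adjusted p = 1.96e-05), Stk3 by 0.47 (SE 0.10, edgeR adjusted p = 0.00194), Sav1 by 0.29 (SE 0.09, edgeR adjusted p = 0.0131) and Mob1b by 1.27 (SE 0.31, edgeR adjusted p = 0.0114). Lats2 (log2 0.03, edgeR adjusted p = 0.821) and Mob1a (-0.20, edgeR adjusted p = 0.0896) did not pass. For Lats1 and Lats2, named as lost in the DKO label, these are changes in whatever RNA of the gene remains. Without the 2-day DKO DMSO library the changes were smaller for the called members other than Sav1. They were -1.16 for Wwc1, -0.68 for Wwc2, -0.49 for Stk4, -0.44 for Nf2, 0.67 for Lats1, 0.22 for Stk3 and 0.60 for Mob1b. Sav1 was no longer called without the 4-day DKO DMSO library (log2 0.15, edgeR adjusted p = 0.176). Fibroblast markers summed to 16700 to 22100 CPM in DKO CP1, against 12000 to 12300 CPM in DKO DMSO, and endothelial markers to 20.0 to 23.1 CPM, against 57.3 to 71.9 CPM. Most of the endothelial sum was Kdr (mean 20.3 CPM against 64.1 CPM). Tek (0.417 CPM against 0.321 CPM), Pecam1, Cdh5 and Tie1 were low in both and not lower under CP1. The part of these markers in the changes was not tested.

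The fits of each day, chosen after seeing the data, gave CP1 changes in DKO cells at 4 days of -1.16 for Wwc1, -0.68 for Wwc2, -0.44 for Nf2 and -0.49 for Stk4, and at 2 days of -1.70, -1.12, -0.96 and -1.01. Lats1 rose by 0.67 at 4 days and 1.20 at 2 days, and Mob1b by 0.60 and 2.18. Mob1a was called lower at 2 days (-0.44) and not at 4 days (0.06), and Sav1 higher at 4 days (0.42) and not at 2 days (0.16). These fits called 8 members at each day, against 48.6% of genes tested at 4 days and 56.2% at 2 days. In these fits a DMSO group of 1 library is assumed to vary like the others, and the difference between days was not tested.

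In WT cells CP1 was followed by less Sav1 RNA and less Lats2 RNA, and the other 8 members did not pass. Of the 10 members, 2 were called, both lower, against 17.8% of genes tested (7.5% higher and 10.3% lower). The median absolute log2 fold change was 0.15 over the members and 0.21 over all genes. By TPM, 7.77% of called genes were higher under CP1, against 42.1% by TMM-scaled counts, and the median of all genes lay at -0.14 (log2). Sav1 fell by 0.50 (SE 0.08, edgeR adjusted p = 0.000787) and Lats2 by 0.26 (SE 0.08, edgeR adjusted p = 0.0337). Wwc1 missed the threshold at -0.32 (SE 0.11, edgeR adjusted p = 0.0532) and passed in 9 of 19 alternatives, among them without the 2-day DKO DMSO library. Sav1 lost its call without the 2-day WT DMSO library (edgeR adjusted p = 0.0587), and Lats2 in 8 of 19 alternatives. The remaining 7 members had log2 values between -0.19 and 0.17, of which Lats1 (-0.19) and Nf2 (0.17) were called in 4 of 19 alternatives each, among them without the 2-day DKO DMSO library (edgeR adjusted p = 0.0163 and 0.00558). Endothelial markers summed to 4.5 to 5.72 CPM in WT CP1, against 14.8 to 16.9 CPM in WT DMSO, and fibroblast markers to 20800 to 27400 CPM, against 30500 to 31200 CPM. Most of the endothelial sum was Kdr (mean 3.64 CPM against 11.5 CPM), and Tek was lower too (1.26 CPM against 4.00 CPM). The part of these markers in the changes was not tested. In the fits of each day, which rest on 1 WT DMSO library assumed to vary like the CP1 groups, 3 members were called at 4 days and 5 at 2 days, against 25.3% and 25.5% of genes tested. At 4 days these were Sav1 (-0.36), Wwc1 (-0.25) and Mob1b (0.22), and at 2 days Sav1 (-0.64), Wwc1 (-0.38), Lats2 (-0.36), Lats1 (-0.30) and Nf2 (0.23). The WT DMSO libraries are shared with the genotype comparison in DMSO.

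The difference between the CP1 change in DKO cells and that in WT cells was tested directly. It passed for 7 of 10 members, 3 higher and 4 lower, against 42.4% of genes tested (20.1% higher and 22.3% lower). By TPM, 91.3% of called genes were higher, against 47.5% by TMM-scaled counts, and the median of all genes lay at 0.38 (log2). The change was more positive in DKO cells for Lats1 (1.10, SE 0.15, edgeR adjusted p = 7.2e-05), Sav1 (0.79, SE 0.12, edgeR adjusted p = 0.000175) and Stk3 (0.40, SE 0.14, edgeR adjusted p = 0.0366). It was more negative for Wwc1 (-1.12, SE 0.15, edgeR adjusted p = 6.48e-05), Nf2 (-0.88, SE 0.14, edgeR adjusted p = 0.00022), Wwc2 (-0.82, SE 0.12, edgeR adjusted p = 0.000204) and Stk4 (-0.71, SE 0.14, edgeR adjusted p = 0.00132). Mob1b had the largest value of the 10 members and was not called (1.14, SE 0.41, edgeR adjusted p = 0.062), nor were Lats2 (0.29, edgeR adjusted p = 0.0656) and Mob1a (-0.24, edgeR adjusted p = 0.157). Mob1b was called in 7 of 18 alternatives, with values from 0.47 without the 2-day DKO DMSO library (edgeR adjusted p = 0.00147) to 2.04 without the 4-day one. Lats2 was called in 5 of 18, among them without the 2-day DKO DMSO library (0.39, edgeR adjusted p = 0.0204), and Stk3 was not called without that library (0.15, edgeR adjusted p = 0.276). By TPM the values of Nf2, Wwc2 and Stk4, at -0.37, -0.31 and -0.20, lost their calls, and relative to that median of all genes they were -0.75, -0.69 and -0.58.

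**Figure D3:**
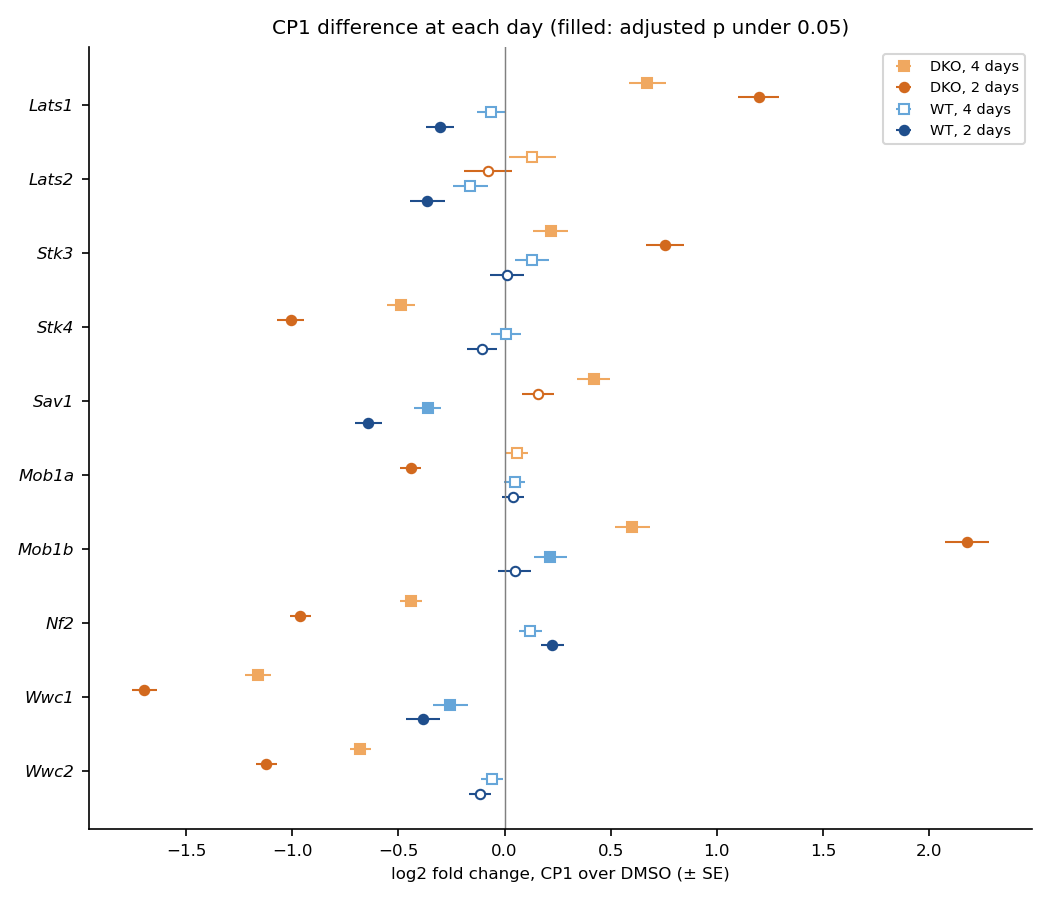
Log2 fold change, CP1 over DMSO, of each member at each day in DKO and WT cells, with its standard error; filled symbols passed the edgeR test. In DKO cells Wwc1 changed by -1.16 at 4 days and -1.70 at 2 days, and Mob1b by 0.60 and 2.18.

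Between the days of CP1, members changed little. In DKO cells 2 of 10 were called, both higher at 4 days, against 24.2% of genes tested (12.1% higher and 12% lower): Mob1b by 0.27 (SE 0.06, edgeR adjusted p = 0.00264) and Wwc1 by 0.16 (SE 0.05, edgeR adjusted p = 0.0278). In WT cells 3 of 10 were called higher at 4 days, against 15.3% of genes tested (7% higher and 8.26% lower): Mob1b by 0.22 (SE 0.06, edgeR adjusted p = 0.0118), Lats1 by 0.17 (SE 0.05, edgeR adjusted p = 0.028) and Sav1 by 0.16 (SE 0.05, edgeR adjusted p = 0.043). DESeq2 called 1 member in DKO cells and 0 in WT cells, and limma on log2(TPM + 1) called 0 in either.

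The share of TPM held by each member of a paralog pair was compared over all 6 DKO and 6 WT libraries. Wwc1 held 53.5 ± 4.76% of the Wwc1 and Wwc2 sum in DKO libraries (range 49.2 to 59.6%) and 28.7 ± 1.81% in WT libraries (range 27.1 to 31.5%; SD, n = 6 each). Stk3 held 33.5 ± 9.92% of the Stk3 and Stk4 sum in DKO libraries (15.2 to 41.8%) and 45.6 ± 1.27% in WT libraries (43.5 to 47.0%; SD, n = 6 each). For both pairs no DKO library overlapped a WT library, and the two-sided exact permutation p was 0.00216, the smallest that 6 against 6 allows (0.00432 adjusted over the 4 pairs). Lats1 held 62.0 ± 8.59% of the Lats sum in DKO and 64.2 ± 1.24% in WT libraries (exact permutation p = 0.654). Mob1a held 92.5 ± 3.13% and 92.0 ± 0.486% of the Mob1 sum (exact permutation p = 0.903). In DKO libraries the Lats share rests on whatever RNA remains of the deleted genes. In the 2-day DKO DMSO library Lats1 held 46.5%, against 57.4 to 69.2% in the other DKO libraries, and Mob1a 98.5%, against 90.0 to 93.1%. The libraries of each genotype mix both treatments and days, so the 6 are not repeats of 1 condition. The permutation p thus does not measure how far a genotype difference repeats. The pairs were chosen with earlier results of these data known. Within DMSO, where 2 libraries stand against 2, the differences were 28.5 percentage points for Wwc1 and -21.9 for Stk3, and the smallest possible p is 0.333. Stk3 held 29.4% (4 days) and 15.2% (2 days) in the DKO DMSO libraries, against 43.5% and 44.9% in WT DMSO. Within CP1 libraries the genotypes were closer. Stk3 held 36.8 to 41.8% in DKO CP1 and 45.6 to 47.0% in WT CP1, and Wwc1 held 49.2 to 51.9% and 27.1 to 28.1%. No stretch of 50 bases is shared between the annotated transcripts of a pair.

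**Figure D4:**
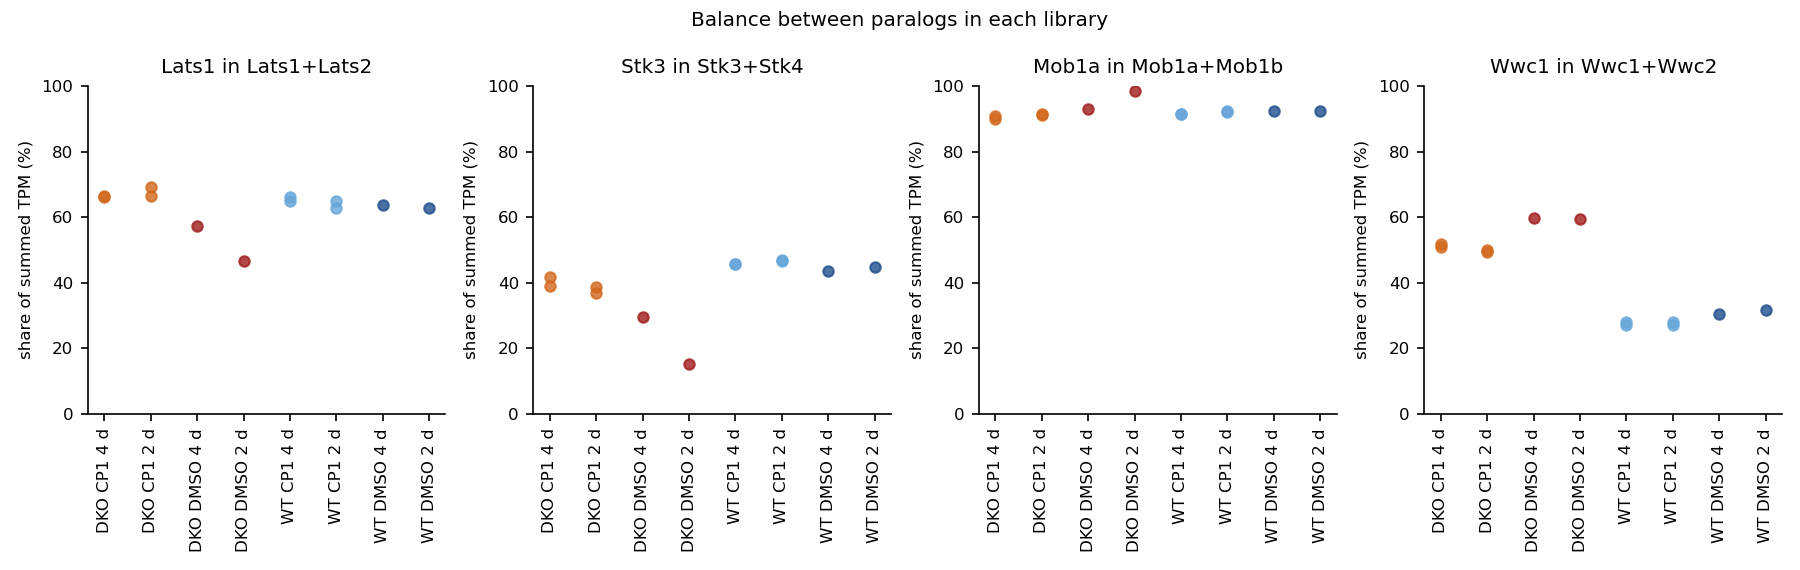
Share of summed TPM (percent, axis from 0 to 100) held by the first paralog of each pair in each of the 12 libraries. Wwc1 holds 49.2 to 59.6% in DKO and 27.1 to 31.5% in WT libraries.

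Beyond the members, 47 further pathway genes in 5 lists were read, of which 46 passed the filter (Crb3 did not). In DMSO, where 32.7% of all genes tested were called higher and 34.8% lower, 5 of 6 NDR kinases and other MOB proteins were lower in DKO cells (median log2 fold change -0.51, against -0.06 over all genes). They include Stk38l (-0.97) and Stk38 (-0.49), relatives of the LATS kinases, and Mob3b (-1.49), the 3 with the smallest p. Of 10 other kinases that activate MST or LATS, 2 were higher and 5 lower, with Map4k3 (-1.56), Map4k5 (-0.83) and Taok3 (-0.62) among the lower. Membrane and junction scaffolds split 5 higher and 5 lower of 11. The protocadherin Dchs1, ligand of FAT4, was 66.9-fold lower, at 0.643 and 0.989 CPM in DKO DMSO (4 and 2 days), against 51.7 and 57.8 CPM in WT DMSO, while the angiomotin Amotl2, which binds YAP, was higher (2.01) and so was the scaffold Dlg1 (1.15). Of 10 STRIPAK phosphatase genes, 5 were higher and 3 lower, with Ppp2r1a (1.38) higher and Strip2 (-4.14) and Slmap (-1.07) lower. Of 9 RASSF and LIM-domain regulators, 5 were higher and 4 lower, with Wtip (1.59) and Ajuba (1.00) higher and Rassf2 (-1.11) lower.

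With CP1 in DKO cells, against 24.2% of all genes tested called higher and 27.6% lower, scaffolds had 2 genes higher and 7 lower of 11 (median -0.30, against 0.02 over all genes), and RASSF and LIM-domain genes 1 higher and 5 lower of 9 (median -0.61). Amotl2 (-0.72), Ajuba (-0.88), Wtip (-0.87) and Ppp2r1a (-0.82) fell, and Fat4 (1.30), Strip2 (2.79), Map4k3 (0.91) and Rassf2 (1.07) rose. In WT cells, where scaffolds had 2 genes higher and 4 lower of 11 and RASSF and LIM-domain genes 2 higher and 4 lower of 9 (against 7.5% higher and 10.3% lower over all genes tested), CP1 was followed by less Map4k3 (-0.62), Amotl2 (-0.43) and Frmd6 (-0.38) and more Rassf2 (0.66). The difference between the CP1 changes, in DKO minus WT, was 1.53 for Map4k3, 3.28 for Strip2, 1.60 for Fat4, -0.92 for Wtip and -0.84 for Ppp2r1a, all called by edgeR. Under CP1, 4 of 6 NDR kinases and other MOB proteins were lower in DKO cells, against 30.6% of all genes tested, and Map4k3 did not pass (log2 -0.03, edgeR adjusted p = 0.718). There the genotype difference of Dchs1 was -4.37 and that of Fjx1, a Golgi kinase that acts on FAT and Dachsous cadherins, 2.51.

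**Figure D5:**
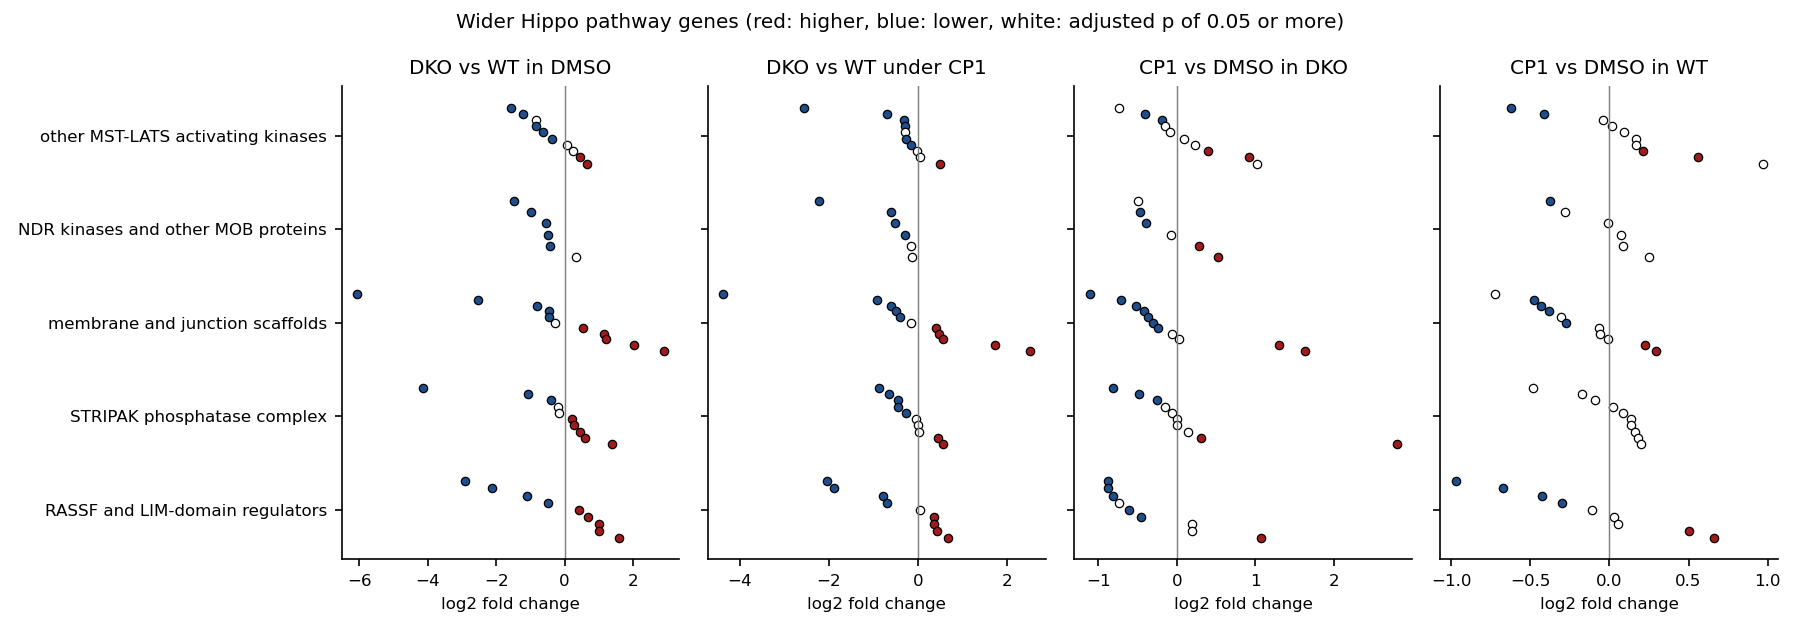
Log2 fold change of 46 further Hippo pathway genes in 5 lists (rows) in the 4 comparisons (panels); each point is 1 gene. Red points were higher, blue lower, and white points did not pass the edgeR test. All 5 called NDR kinases and MOB proteins are lower in DKO cells in DMSO.

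Likeness to other pathway genes was measured over the 8 group means as the root mean square difference in log2 CPM relative to WT DMSO, among 55 candidates. The smallest distance for Stk4 was to Wwc2 (0.09), and for Wwc2 to Stk4, with Ppp2r1a next for Wwc2 (0.10). Nf2 was nearest to Wtip (0.17), Wwc1 to Fjx1 (0.27), Sav1 to Map4k3 (0.34) and Lats1 to Fat4 (0.34). Mob1b was nearest to Taok1 (0.16), which had 26.4 CPM in the 2-day DKO DMSO library, against 107 to 167 CPM in the other 11 libraries.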

How the data were processed

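Total RNA of 12 mouse embryonic fibroblast libraries was analysed. The authors counted reads per gene with featureCounts 1.5.2 on mm10, per the submitters' processing notes. The aligner and strand setting are not given in the sources used here. The deposited counts are raw whole numbers, and the deposited TPM values were computed by the authors from those counts and gene lengths, which was checked on the tables. Groups came from sample titles.

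TMM-scaled counts entered edgeR 4.0.16 (R 4.3.3) with its robust quasi-likelihood test, Benjamini-Hochberg adjustment over all genes and a threshold of 0.05. A filter at a minimum count of 10 and a minimum total of 15, by genotype and treatment, kept 16595 of 32168 genes. All 10 members passed. The model held 4 means of genotype and treatment and a day term per genotype (6 residual degrees of freedom); the 2 days of CP1 were compared in a fit of 8 group means with 4. CPM is the count over the TMM-scaled total. At 1 CPM a gene has 17 to 25 reads, so depth does not limit the members. Shares between paralogs were tested by exact permutation (scipy 1.17.1). Alternatives were DESeq2 1.42.0 and its size factors, limma 3.58.1 on log2(TPM + 1), no filter, removal of small RNA genes, the libraries compared alone, 8 means, and leaving out each library; the closing section gives their effect. The fit of the DMSO libraries alone held genotype only, with no day term.

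All 10 members were named in every comparison, and of each wider list up to 3 called genes with the smallest p. Fjx1 and Taok1 are also named by their likeness to members. The members, lists, paralog pairs and motifs were chosen with earlier results of these data known. Overlaps come from GENCODE M21, whose gene spans equal those of the deposited table for all 10 members. The tests of single genes were run on simulated data in which only a small share of genes changed. Such data do not show how the tests behave where most genes are called, as between the genotypes here.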

Additional observations from a re-analysis of the deposited data

Results flagged for a closer look

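For 7 members the change with CP1 in DKO cells differed from that in WT cells by the test of the difference itself (edgeR, n = 12 libraries), on the log2 scale. The difference was 1.10 for Lats1, 0.79 for Sav1 and 0.40 for Stk3. It was -1.12 for Wwc1, -0.88 for Nf2, -0.82 for Wwc2 and -0.71 for Stk4. Lats1 is named as lost in the DKO label, so its counts in DKO cells are of whatever RNA of the gene remains. Stk3 lost its call in 9 of 18 alternatives, all of which left out 1 library. Nf2, Wwc2 and Stk4 lost theirs by TPM only, and Lats1, Sav1 and Wwc1 kept theirs in all 18. All 7 rest on the 2 DKO DMSO and 2 WT DMSO libraries.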

How the results depend on the processing

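Genotype differences in DMSO and under CP1 and the CP1 changes in DKO cells kept their count of called members within 1.5 times in every alternative. For CP1 in WT cells the count of 2 became 5 with 8 group means and with the libraries compared alone, and 0 to 5 when 1 library was left out (0 without the 2-day WT DMSO library, 5 without either DKO DMSO library). For CP1 days in DKO cells the count of 2 became 1 with the libraries compared alone and by DESeq2, 0 by TPM, and 1 to 2 with a library left out. In WT cells the count of 3 became 0 by DESeq2 and by TPM, and 0 to 3 with a library left out. The cause was not tested.

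The share difference (DKO minus WT, in percentage points) reversed within CP1 libraries for Lats1 (2.36) and Mob1a (-1.08). With a library left out it ran from -3.68 to 0.868 for Lats1 and from -0.76 to 0.933 for Mob1a, the reversed ends being without the 2-day DKO DMSO library. Within DMSO, Stk3 (-21.9) and Wwc1 (28.5) could not pass with 2 libraries against 2.

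Single members reversed only where the value reported was not called, in log2. With a library left out, Mob1a in DKO over WT in DMSO ran from -0.28 to 0.22 (the 2-day and then the 4-day DKO DMSO library left out, with edgeR adjusted p of 0.000811 and 0.00465). Mob1b under CP1 ran from -0.17 to 0.095, and was 0.17 by TPM. For CP1 in DKO cells Lats2 ran from -0.083 to 0.13, and Mob1a from -0.45 to 0.059, with 0.12 by TPM. For CP1 in WT cells Stk4 ran from -0.11 to 0.0074, and TPM gave Stk3 -0.11, Mob1a -0.14, Mob1b -0.052 and Nf2 -0.0135. The difference of CP1 changes for Mob1a ran from -0.49 to 0.0157 and was 0.26 by TPM. Between CP1 days in DKO cells, Stk4 ran from -0.061 to 0.034 and Sav1 from -0.0034 to 0.067. In WT cells TPM gave Lats2 -0.075, Stk4 -0.097, Mob1a -0.11, Nf2 -0.14, Wwc1 -0.090 and Wwc2 -0.083, where the median of all genes was -0.13.

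Repeats with the same number deviated together weakly or not at all (correlations of -0.009 to 0.12 over 10902 genes). Such values do not settle whether the numbers pair the samples. Among the 8 CP1 libraries a replicate block left 9 members called for genotype, 2 for days in DKO cells and 3 in WT cells, as without the block, with 11319, 4343 and 2929 genes called against 11211, 4029 and 2569. No paired analysis was possible because each DMSO group has 1 library for the comparisons with DMSO. The day term is assumed equal under both treatments, and the DMSO side of each genotype rests on 2 libraries.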
